A study of Mus musculus with 20 samples.

Results

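The genes described are the nuclear genes of mitochondrial oxidative phosphorylation in mouse whole blood during the growth of a hepatoma graft. They were chosen by the names on the array: every probe named Nduf, Cox with a number, Uqcr, Atp5 or Sdha to Sdhd with a Cy5 signal that the scanner software marked well above background on 4 or more of the 20 arrays. Of 126 probes of 89 genes with such names, 112 probes of 85 genes met that rule, and all 85 genes were among the 15266 genes tested. By name, 35 genes belong to complex I, 4 to complex II, 7 to complex III, 14 to complex IV and 15 to complex V, and 7 are assembly genes. Ndufa4 was kept apart, since it was first counted to complex I and later to complex IV, as were Atp5s and Cox4nb, which are not subunits of a complex.

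Blood came from 4 female C57Bl/6 mice (numbers 305, 310, 315 and 320), each bled before (day 0) and 10, 15, 20 and 25 days after Hepa1-6 cells, a mouse hepatoma line, were placed under the skin. Each of the 20 arrays held the RNA of 1 mouse and day in Cy5 and a common RNA from the blood of untreated female C57Bl/6 mice in Cy3, so that the log2 ratio is above 0 where the mouse sample held more of a transcript than that common RNA. Each day had a slide of its own, so day and slide cannot be told apart, and no mice without a graft at days 10 to 25 were analysed here. In whole blood, fewer cells of a type and less RNA per cell cannot be told apart.

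Oxidative phosphorylation passes electrons from NADH (complex I) and succinate (complex II) over ubiquinone, complex III and cytochrome c to oxygen at complex IV, and complex V, the ATP synthase, uses the resulting proton gradient to make ATP. Assembly genes such as Cox17, a copper chaperone for complex IV, build the complexes but are not part of them. The subunits encoded in mitochondrial DNA carry other names and are no members. In blood, white cells and reticulocytes hold mitochondria, mature red cells lose them, and mature neutrophils are known for few mitochondria and a reliance on glycolysis.

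The arrays had 37.7% to 51.2% of spots well above background. The median Cy5 signal over background was 50.1 to 69.6 units on day 0, 16.98 to 21.1 on day 10, 13.02 to 16.4 on day 15, 13.3 to 16.8 on day 20 and 21.9 to 29.7 on day 25. No member spot was saturated, and 84 of the 85 genes were well above background on all 20 arrays, the exception being Cox4nb, on 9. The arrays of a day were not always closest to each other. Over all genes tested, mouse 320 of day 0 correlated with the other arrays of its day at a mean r of 0.411 and with those of day 10 at 0.610, and mouse 305 of day 0 at 0.471 and with those of day 25 at 0.602. Mouse 305 of day 20 had a mean r of 0.410 with its own day. Mice 310, 315 and 320 of day 20 were closer to day 10, and mouse 310 of day 10 to day 15, than to their own day, for example at a mean r of 0.721 against 0.653 for mouse 315 of day 20. Defining transcripts of blood were measured (13 of 16 mature neutrophil, 12 of 12 T cell, 9 of 9 B cell and 16 of 21 erythroid genes of the lists), while 4 of 9 genes of the hepatoma and liver list passed the filter.

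Expression of the genes differed among the days for 45 of 85 members, by limma's F test over the 4 differences from day 0 with Benjamini-Hochberg adjustment over all genes tested, against 30.9% of all genes. A gene is called higher or lower below where limma's adjusted p is under 0.05. On day 10 against day 0, 9 members were higher and 9 lower, beside 4.95% higher and 8.99% lower among all genes (13.9% in either direction). On day 15, 9 were higher and 10 lower (2.59% and 5.08% of all genes, 7.67% in either direction), and on day 20, 5 and 5 (1.52% and 2.66%, 4.18% in either direction). On day 25 no member was called against day 0 (0.0393% of all genes were higher and 0.124% lower, 0.164% in either direction), with 14 members (16.5%) and 17.6% of all genes at an unadjusted p under 0.05. With the mouse as a fixed block, 4 members were lower on day 25 (Ndufb11, Ndufb9, Cox7a2 and Cox7b), beside 1.22% of all genes in that fit. With the mouse as a random effect no member was called. Between day 25 and day 10, 31 members were higher and 19 lower (19.7% and 14.8% of all genes, 34.5% in either direction). The median difference over the 85 members was close to that over all genes in each comparison: -0.04 against -0.02 on day 10, -0.04 against -0.02 on day 15, -0.01 against -0.02 on day 20 and 0.02 against -0.00 on day 25, all from day 0, and 0.10 against 0.03 for day 25 minus day 10. After loess normalization the members thus moved in both directions at once, and the complexes differed in which direction held more genes. This depends on the normalization. With each array centred on its median alone, 0 members were higher and 61 lower on day 10 against day 0. Between day 25 and day 10, 59 were then higher and 0 lower.

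**Figure D1:**
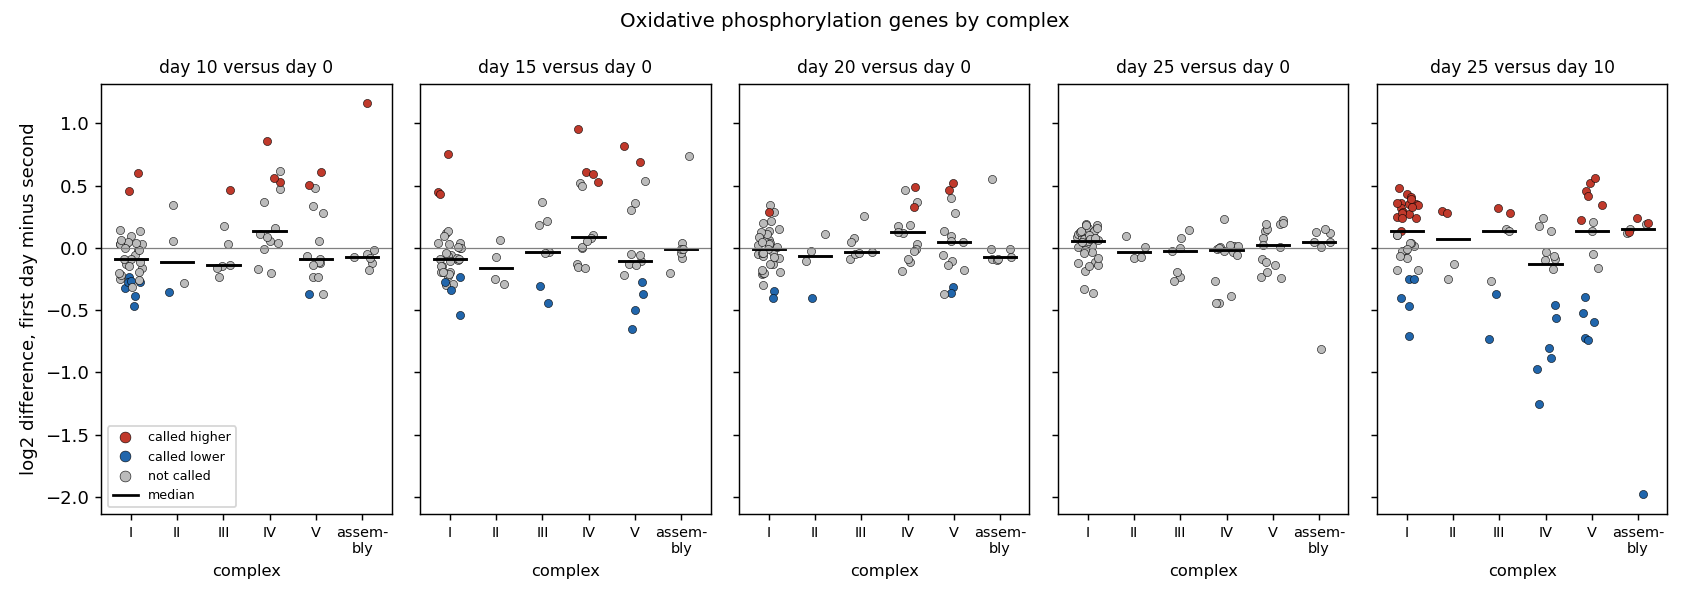
Log2 difference of each member in 5 comparisons (1 panel each), by complex and for the assembly genes, after loess normalization. Red points are called higher, blue points lower and grey points are not called (limma, adjusted p under 0.05), and bars are medians. In day 25 versus day 10, complex I holds 18 higher and 5 lower genes and complex IV 0 higher and 6 lower. With median centring in place of loess, no member was called higher on days 10 to 20 and none lower on day 25 versus day 10.

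All directions below are those after loess normalization, which takes a smooth curve of ratio against brightness off each array. A shift remained among the brightest probes. The 150 other genes with a mean log2 brightness above 14 had medians of 0.44 (day 10 minus day 0) and -0.78 (day 25 minus day 10). With each array centred on its median alone, the median of all genes moved to -0.47 on day 10, -0.35 on day 15 and -0.26 on day 20 (differences from day 0) and to 0.45 for day 25 minus day 10, and the median of the members to -1.31, -1.17, -0.70 and 1.08. All 22 named higher calls of days 10, 15 and 20 then had differences below 0, and 8 of the 10 named lower calls of day 25 against day 10 had differences above 0. The named lower calls of days 10 to 20, the named higher calls of day 25 against day 10, and the lower calls of Cox17 and Cox6b2 on day 25 against day 10 had the same sign under both.

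Complex I takes electrons from NADH. Of its 35 genes, 7 were lower on day 10, 4 on day 15 and 2 on day 20 than on day 0, while 2, 3 and 1 were higher. Ndufa8, an accessory subunit on the intermembrane space side, had log2 ratios of 0.70, 0.39, 0.47 and 0.21 on day 0 (mice 305, 310, 315 and 320), -0.15, 0.04, 0.01 and -0.03 on day 10, -0.04, -0.14, -0.10 and -0.11 on day 15, 0.04, -0.06, 0.22 and 0.19 on day 20, and 0.29, 0.22, 0.36 and 0.41 on day 25. The values of days 10 and 15 all lay below those of day 0. Ndufa8 fell by 0.47 (SE 0.084, limma adjusted p = 0.00237) on day 10, by 0.54 on day 15 and by 0.34 on day 20 relative to day 0, in 4 of 4 mice each time. On day 25 its difference from day 0 was -0.12 (adjusted p = 0.468), and it was higher by 0.35 (SE 0.084, adjusted p = 0.00421) than on day 10.

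Ndufc2, an accessory subunit of the membrane arm, was the other member lower on all of days 10, 15 and 20, which held for 1.35% of all genes. Its log2 ratios were -0.18, 0.01, -0.22 and -0.11 on day 10, against 0.51, 0.28, 0.32 and -0.05 on day 0. Mouse 320 alone brought the day 0 range down to that of day 10. The differences from day 0 were -0.39 on day 10, -0.34 on day 15 and -0.40 on day 20 (adjusted p = 0.00889, 0.0222 and 0.0194). Ndufa9, an accessory subunit near the ubiquinone site, was lower by 0.32 on day 10, Ndufs3, a core subunit, by 0.28 and Ndufb3 by 0.27, and each of the 3 was lower in 4 of 4 mice. Leaving out mouse 305 or 315 of day 0 or of day 10 ended all 3 calls, and Ndufa9, with an adjusted p of 0.172 when mouse 305 of day 0 was left out, was sensitive to 9 arrays in all. On day 15 Ndufv1, the core subunit that binds NADH, was lower by 0.23, a call that ended without mouse 305 of day 0. Ndufs3 was lower by 0.27, a call that 6 single arrays ended (adjusted p up to 0.16) and that the mouse as a fixed block lost (adjusted p = 0.0528). The second probe of Ndufa8 gave -0.43 on day 10 and -0.44 on day 15, both called, and -0.20 on day 20 (limma adjusted p over probes = 0.125).

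On day 25, 18 of the 35 complex I genes were higher than on day 10 and 5 were lower, and the median difference was 0.14. Ndufa9 led, with 0.61, 0.29, 0.31 and 0.21 on day 25 against -0.22, 0.01, -0.12 and -0.17 on day 10. The groups did not overlap, and the difference was 0.48 (SE 0.10, adjusted p = 0.00198, higher in 4 of 4 mice). Ndufa6 (0.43), Ndufb3 (0.41), Ndufc2 (0.39), Ndufs4 (0.36) and Ndufab1, the mitochondrial acyl carrier protein (0.36), followed. In fold terms these differences lay between 1.28 for Ndufab1 and 1.40 for Ndufa9. The second, dimmer probe of Ndufab1 differed by -0.01 and was not called (limma adjusted p over probes = 0.864). All 13 named higher calls of day 25 against day 10 stood above the median of all genes under each of the 6 other ways of making the values. They were named for their values in these same data. Of the 10 named lower calls of that comparison, 4 stayed below that median under all 6. From day 0, 1 of 9 named higher calls stayed above it on day 10, 1 of 9 on day 15 and 0 of 4 on day 20. Of the named lower calls, 5 of 7, 9 of 10 and 5 of 5 stayed below it on those days.

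A smaller set of complex I genes moved the other way. Ndufa1, a small membrane arm subunit encoded on the X chromosome, had 0.26, 0.13, 0.29 and 0.41 on day 10 and 0.10, 0.35, 0.43 and 0.82 on day 15, against -0.69, -0.22, -0.31 and -0.08 on day 0. It was higher by 0.60 on day 10 and by 0.75 on day 15 (SE 0.15 each, adjusted p = 0.0126 and 0.00388), and lower by 0.71 on day 25 than on day 10. The call of day 10 ended without mouse 305 of day 0 (adjusted p = 0.0576). The second probe of Ndufa1 gave 0.56, 0.75 and -0.54 in these comparisons, all called. On day 20 against day 0 it was higher by 0.67 (limma adjusted p over probes = 0.0108), where the first probe was not called (0.29, limma adjusted p over probes = 0.241). Ndufa3 was higher by 0.46 and 0.44 on days 10 and 15 and lower by 0.41 on day 25 than on day 10. Ndufs5 was higher on days 15 (0.43) and 20 (0.29) but not called on day 10 (0.14, adjusted p = 0.209). With median centring the called differences of these genes from day 0, on their brightest probes, lay below 0, between -0.60 and -0.98. That of Ndufa1 between days 25 and 10 was 0.50.

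**Figure D2:**
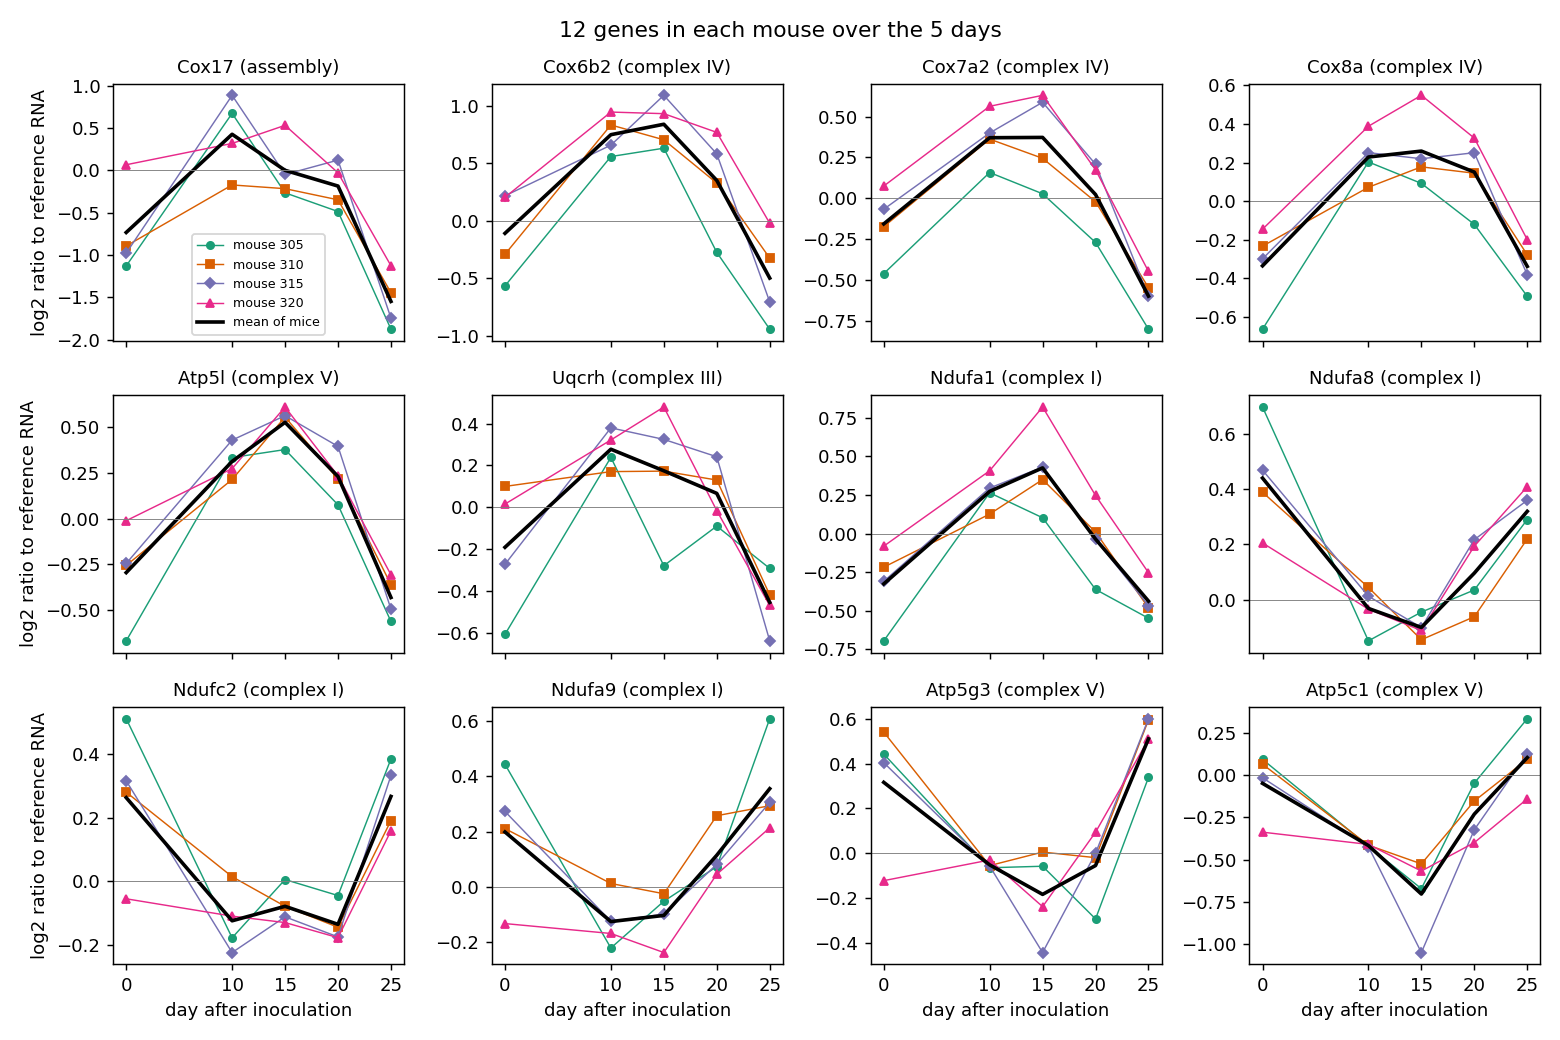
Log2 ratio to the common RNA (vertical axis) by day after inoculation (horizontal axis) for 12 members, after loess normalization, 1 coloured line for each of the 4 mice and a black line for their mean. Cox17, Cox6b2, Cox7a2, Cox8a, Atp5l, Uqcrh and Ndufa1 are highest on day 10 or 15 and lowest on day 25 in the mean, while Ndufa8, Ndufc2, Ndufa9, Atp5g3 and Atp5c1 are below their day 0 mean on days 10, 15 and 20. With median centring the first 7 are below their day 0 level on day 10.

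Complex II oxidises succinate and is also an enzyme of the tricarboxylic acid cycle. Sdhd, a membrane anchor, had log2 ratios of -0.27, -0.08, -0.19 and -0.25 on day 10, against 0.38, 0.05, 0.16 and 0.02 on day 0. The groups did not overlap. Sdhd fell by 0.35 (SE 0.096, adjusted p = 0.0217) on day 10 and by 0.40 (adjusted p = 0.0277) on day 20, and the day 15 difference of -0.29 was not called (adjusted p = 0.0791). Sdhb, the iron-sulfur subunit, and Sdhd were higher on day 25 than on day 10, by 0.29 and 0.28. Leaving out 1 of 4 arrays ended the call of Sdhb, and the adjusted p reached 0.0918 when mouse 305 of day 25 was the one omitted. Sdha, the flavoprotein that binds succinate, was called in no comparison, with differences between -0.13 and 0.05. Sdhc, the other membrane anchor, was the highest of the complex on day 10 (0.35, adjusted p = 0.0986), where mouse 305 had 0.97 and the others 0.08 to 0.28.

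Complex III passes electrons on to cytochrome c. Uqcrfs1, the Rieske iron-sulfur protein, had -0.01, -0.08, -0.04 and -0.15 on day 15, against 0.51, 0.37, 0.58 and 0.03 on day 0. It fell by 0.44 on day 15 (SE 0.086, adjusted p = 0.00393), and Uqcrc1, a core protein, by 0.31 (adjusted p = 0.0155). On day 25 Uqcrfs1 was higher than on day 10 by 0.32 and Uqcrc1 by 0.28. The second, dimmer probe of Uqcrc1 differed by -0.07 and 0.07 in these comparisons and was not called. Uqcrh, the small acidic hinge protein, went the other way: it was higher on day 10 by 0.47 (adjusted p = 0.0436), a call that ended without any of 9 arrays. On day 25 its ratios were -0.29, -0.42, -0.64 and -0.47, against 0.24, 0.17, 0.38 and 0.32 on day 10. The groups did not overlap, and Uqcrh fell by 0.73 (SE 0.15, adjusted p = 0.00148, lower in 4 of 4 mice), where median centring gave 0.46. Uqcrq fell by 0.37 in the same comparison (adjusted p = 0.00305).

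Complex IV, cytochrome c oxidase, reduces oxygen. It was the complex with no gene called lower on days 10, 15 and 20 (3, 4 and 2 of 14 higher) and none called higher on day 25 against day 10 (6 of 14 lower, median -0.13). The 6 were Cox6b2, Cox7a2, Cox6a1, Cox7b, Cox8a and Cox6c, all small subunits around the catalytic core. Under median centring no gene of complex IV was lower and 7 were higher on day 25 against day 10, and the differences of Cox7a2, Cox6a1 and Cox7b were above 0.

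Cox6b2, known as the testis form of subunit 6b, had the largest differences among the subunits. Its log2 ratios were -0.57, -0.29, 0.22 and 0.20 on day 0, 0.56, 0.84, 0.66 and 0.95 on day 10, 0.63, 0.71, 1.09 and 0.93 on day 15, -0.27, 0.33, 0.58 and 0.77 on day 20, and -0.94, -0.32, -0.71 and -0.02 on day 25. Days 10 and 15 lay above every value of days 0 and 25. It was higher than on day 0 by 0.86 (SE 0.22, adjusted p = 0.0175) on day 10 and by 0.95 (adjusted p = 0.0125) on day 15, and it fell by 1.25 (adjusted p = 0.000585) on day 25 relative to day 10, a level 2.38-fold lower. Leaving out mouse 305 of day 0 ended both calls from day 0, with adjusted p = 0.0784 on day 10 and 0.0576 on day 15, and leaving out mouse 320 of day 10 also ended that of day 10. Median centring gave -0.50 on day 10 and -0.31 on day 15, beside medians of all genes of -0.47 and -0.35. Cox6b1, the form found in most tissues, differed by -0.09 to 0.04 and was called in no comparison.

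Cox7a2, the liver form of subunit 7a, had -0.80, -0.55, -0.60 and -0.45 on day 25, against 0.16, 0.36, 0.40 and 0.56 on day 10. The groups did not overlap, and Cox7a2 fell by 0.97 (SE 0.14, adjusted p = 0.000149, lower in 4 of 4 mice). It was higher than on day 0 by 0.53 on days 10 and 15, calls that ended without any 1 of 3 and 4 arrays. Its second probe fell by 0.88 on day 25 against day 10 (limma adjusted p over probes = 0.00153). That probe was not called on days 10 and 15 from day 0 (0.47 and 0.52, limma adjusted p over probes = 0.0944 and 0.113). Cox7a1, its heart and muscle form, and Cox7a2l, a related assembly protein of respiratory supercomplexes, were called in no comparison, with differences of -0.06 to 0.12 and -0.20 to 0.17. Cox8a was 1 of 3 members higher on all of days 10, 15 and 20 (0.56, 0.59 and 0.49, adjusted p = 0.00575, 0.00484 and 0.031), which held for 0.609% of all genes. Cox8b and Cox8c were well above background on no array. Cox6a1 fell by 0.88 on day 25 against day 10 (adjusted p = 0.00386), while Cox6a2, its heart and muscle form, differed by -0.09 (adjusted p = 0.348).

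Of the 14 genes of complex IV, 8 were not called between days 25 and 10. Cox4i1 ranged between -0.30 and 0.04 over all 20 arrays, and its 5 differences were -0.04 to 0.10. Cox4i2, its hypoxia-related form, was well above background on 2 arrays and is no member. Cox5a had the highest difference of the complex between days 25 and 10 (0.24, adjusted p = 0.263). Cox5b had differences of -0.17 to 0.13, and neither gene was called in any comparison.

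The 250 bases before the start are given for 2 of the 6 complex IV genes called lower on day 25 against day 10 after loess. Upstream sequences of 70 of the 85 members were found by name in RefSeq (build GRCm38.p6). Capitals mark motifs searched on both strands: the NRF1 site and its core, which leaves 1 base of the site free and so includes it, the ETS core CCGGAAG, and the ESRRA site TCAAGGTCA. The longer ETS site ACCGGAAGT and the YY1 site AAGATGGCG were searched too. Each sequence is written 5′ to 3′ on the strand of its gene, here the minus strand. The upstream sequence of Cox6b2, chr7:4753095-4753344, held none of them, and that of Cox6a1, chr5:115348959-115349208, held an NRF1 site 162 to 153 bases before the start, a second match to the NRF1 core at 117 to 108 and an ETS core at 16 to 10.
Cox6b2: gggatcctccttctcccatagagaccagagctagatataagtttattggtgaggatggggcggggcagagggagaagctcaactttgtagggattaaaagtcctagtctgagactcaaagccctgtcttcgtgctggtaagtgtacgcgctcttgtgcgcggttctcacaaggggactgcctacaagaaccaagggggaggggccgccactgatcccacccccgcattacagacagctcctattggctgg
Cox6a1: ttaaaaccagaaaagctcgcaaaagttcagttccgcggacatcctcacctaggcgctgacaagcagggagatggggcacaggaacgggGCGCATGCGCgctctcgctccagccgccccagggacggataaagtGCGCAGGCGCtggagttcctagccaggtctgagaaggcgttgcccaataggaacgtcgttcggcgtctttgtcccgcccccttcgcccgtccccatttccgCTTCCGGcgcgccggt
Complex V makes ATP, with a catalytic head in the matrix, a membrane part with the c ring, and a stalk between them. Its 15 genes split: 6 were higher and 5 lower on day 25 than on day 10, and 12 of the 15 differed among the days. The higher ones were the gamma subunit Atp5c1, the c ring genes Atp5g2 and Atp5g3, the stalk genes Atp5o and Atp5j, and Atp5a1. The lower ones were the beta subunit Atp5b and Atp5h, Atp5j2, Atp5k and Atp5l.

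Atp5c1, the gamma subunit that turns inside the head, had 0.09, 0.06, -0.02 and -0.34 on day 0, -0.42, -0.42, -0.42 and -0.41 on day 10, -0.67, -0.53, -1.05 and -0.57 on day 15, -0.05, -0.15, -0.32 and -0.40 on day 20, and 0.33, 0.09, 0.13 and -0.14 on day 25. The 4 mice were nearly alike on day 10 and all below their day 0 values. It fell by 0.37 (SE 0.12, adjusted p = 0.0452) on day 10, a call that ended without any 1 of 13 arrays, and by 0.65 (adjusted p = 0.00241) on day 15, the lowest difference of any member on that day. On day 25 it was higher by 0.52 (adjusted p = 0.00308) than on day 10.

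The c ring is encoded by Atp5g1, Atp5g2 and Atp5g3, which yield the same mature protein. Atp5g3 had 0.34, 0.60, 0.60 and 0.51 on day 25, against -0.06, -0.06, -0.06 and -0.03 on day 10. The groups did not overlap, and the difference of 0.56 (SE 0.12, adjusted p = 0.00232) was the highest among all 85 members. Atp5g2 was higher by 0.46 (adjusted p = 0.00141), and Atp5g1 by 0.14, which was not called (adjusted p = 0.0746). Relative to day 0, Atp5g3 and Atp5g2 were lower on day 15 by 0.50 and 0.37, calls that each ended without any 1 of 4 arrays. A second probe of Atp5g2 differed by 0.07 between days 25 and 10 (adjusted p = 0.403). Atp5o, the stalk protein that confers oligomycin sensitivity, was higher by 0.42 on day 25 than on day 10.

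Atp5l (subunit g) and Atp5h (subunit d) were the other 2 members higher on all of days 10, 15 and 20. Atp5l had 0.33, 0.21, 0.43 and 0.27 on day 10, 0.38, 0.55, 0.56 and 0.61 on day 15 and 0.08, 0.22, 0.39 and 0.23 on day 20, against -0.67, -0.26, -0.24 and -0.01 on day 0. No value of these 3 days overlapped those of day 0. The differences from day 0 were 0.61, 0.82 and 0.52 (SE 0.105 each, adjusted p = 0.00203, 0.000306 and 0.0116), and Atp5l fell by 0.74 on day 25 relative to day 10 (adjusted p = 0.00012). The call of day 20 ended without mouse 315 of that day (adjusted p = 0.0592). Atp5h rose by 0.51, 0.69 and 0.47 on the same days relative to day 0 and fell by 0.59 on day 25 relative to day 10. The second probe of Atp5h, of similar brightness, gave 0.31, 0.42 and 0.40 from day 0 and was called on none of these days (limma adjusted p over probes = 0.131, 0.0733 and 0.0881). With median centring, the differences of both genes from day 0 were between -0.38 and -1.02, and those between days 25 and 10 were 0.48 for Atp5l and 0.63 for Atp5h.

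The beta subunit Atp5b, where ATP is made, fell by 0.72 on day 25 against day 10 (adjusted p = 0.00557). It was measured by 3 probes of mean log2 brightness 14.7, 11.5 and 9.22, which fell by 0.72, 1.22 and 1.06, so that the dim probes moved at least as far as the bright one. Median centring gave 0.47 for the bright probe in that comparison. On day 10 against day 0 the bright probe was not called (0.48, limma adjusted p over probes = 0.0944). The other 2 were higher there, by 0.83 and 0.61 (limma adjusted p over probes = 0.0149 and 0.0268). Atp5a1, the alpha subunit, was the only member whose probes were called in opposite directions: its brighter probe was higher by 0.22 and the other lower by 0.41 on day 25 against day 10 (limma adjusted p over probes = 0.0299 and 0.0165). Its direction is thus not settled. On day 20 the brighter probe fell by 0.31 from day 0, and the other differed by 0.03.

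Upstream sequences of 3 complex V genes are shown, 1 of the lower and 2 of the higher group of day 25 against day 10, all on the minus strand. Atp5l, chr9:44920743-44920992, held an ETS core 212 to 206 bases before the start. Atp5g2, chr15:102671048-102671297, held an NRF1 site at 42 to 33, and Atp5g3, chr2:73911327-73911576, an ESRRA site at 52 to 44.
Atp5l: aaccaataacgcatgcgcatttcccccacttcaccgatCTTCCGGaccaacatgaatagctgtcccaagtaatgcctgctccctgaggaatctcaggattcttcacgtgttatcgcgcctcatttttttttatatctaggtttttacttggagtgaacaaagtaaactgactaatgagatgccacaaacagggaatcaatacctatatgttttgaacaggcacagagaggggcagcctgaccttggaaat
Atp5g2: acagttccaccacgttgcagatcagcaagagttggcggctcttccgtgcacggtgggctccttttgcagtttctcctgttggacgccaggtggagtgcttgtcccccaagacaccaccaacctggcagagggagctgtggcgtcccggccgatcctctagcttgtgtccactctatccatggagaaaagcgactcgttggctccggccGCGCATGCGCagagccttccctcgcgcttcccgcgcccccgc
Atp5g3: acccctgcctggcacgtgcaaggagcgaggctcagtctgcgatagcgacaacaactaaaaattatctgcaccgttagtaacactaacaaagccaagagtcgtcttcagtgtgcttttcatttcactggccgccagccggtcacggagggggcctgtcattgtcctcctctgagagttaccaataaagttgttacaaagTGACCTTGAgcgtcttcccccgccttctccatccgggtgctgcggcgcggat
Over the 70 members found, 17.1% held the NRF1 core within these 250 bases and 17.1% the ETS core. Of 32851 sequences of all genes with an upstream sequence, tested here or not, 3.74% and 6.91% did. The longer ETS site and the YY1 site were in 0 of the 70 members, against 0.804% and 0.606% of those sequences. Of the members higher on day 25 than on day 10, 4 of 30 held each core, and of those lower, 3 of 15 held the NRF1 core and 5 of 15 the ETS core. These shares describe letters in a window and were not tested.

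Of the 7 assembly genes, Cox17 differed most. Cox17 passes copper to the proteins that load complex IV. The brightest of its 2 probes, which was designed on an expressed sequence tag and is tied to Cox17 by name alone, stood for the gene. It had -1.13, -0.89, -0.98 and 0.07 on day 0, 0.67, -0.17, 0.89 and 0.32 on day 10, -0.27, -0.22, -0.05 and 0.53 on day 15, -0.49, -0.35, 0.12 and -0.03 on day 20, and -1.88, -1.45, -1.75 and -1.13 on day 25. Day 25 held the lowest values, with mouse 320 of day 25 level with mouse 305 of day 0, and on day 0 mouse 320 was far above the other 3. Cox17 was higher by 1.16 (SE 0.26, adjusted p = 0.00851) on day 10 than on day 0, and on day 25 it fell by 1.98 (adjusted p = 7.88e-05) relative to day 10, a level 3.93-fold lower and the largest difference of any member. With median centring the day 10 difference was -0.42, which is 0.04 above that setting's median of all genes, and with the Cy5 signal alone the difference between days 25 and 10 was 0.49 below that setting's median.

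The other Cox17 probe gave smaller differences with the same signs. It had -0.48, -0.22, -0.31 and -0.26 on day 25, against -0.04, 0.06, 0.15 and 0.26 on day 10, and -0.37, -0.15, -0.13 and -0.07 on day 0. It fell by 0.42 on day 25 against day 10 (SE 0.099, limma adjusted p over probes = 0.00404), and was higher than on day 0 by 0.28 on day 10 (adjusted p = 0.0711), 0.38 on day 15 (adjusted p = 0.0268) and 0.42 on day 20 (adjusted p = 0.032). The gap between the probes was 1.55 for day 25 minus day 10, the widest among the 23 genes with several probes, so the size for Cox17 depends on the probe. The other assembly genes moved little: Cox11, which inserts copper, was higher by 0.24 on day 25 than on day 10 (adjusted p = 0.0112), and Ndufa12l and Ndufaf1 by 0.20 and 0.13. Cox18 was not called on its brighter probe (0.19, adjusted p = 0.0889), while its second probe was (0.29, limma adjusted p over probes = 0.00745). Ndufa4, Atp5s and Cox4nb were called in no comparison.

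**Figure D3:**
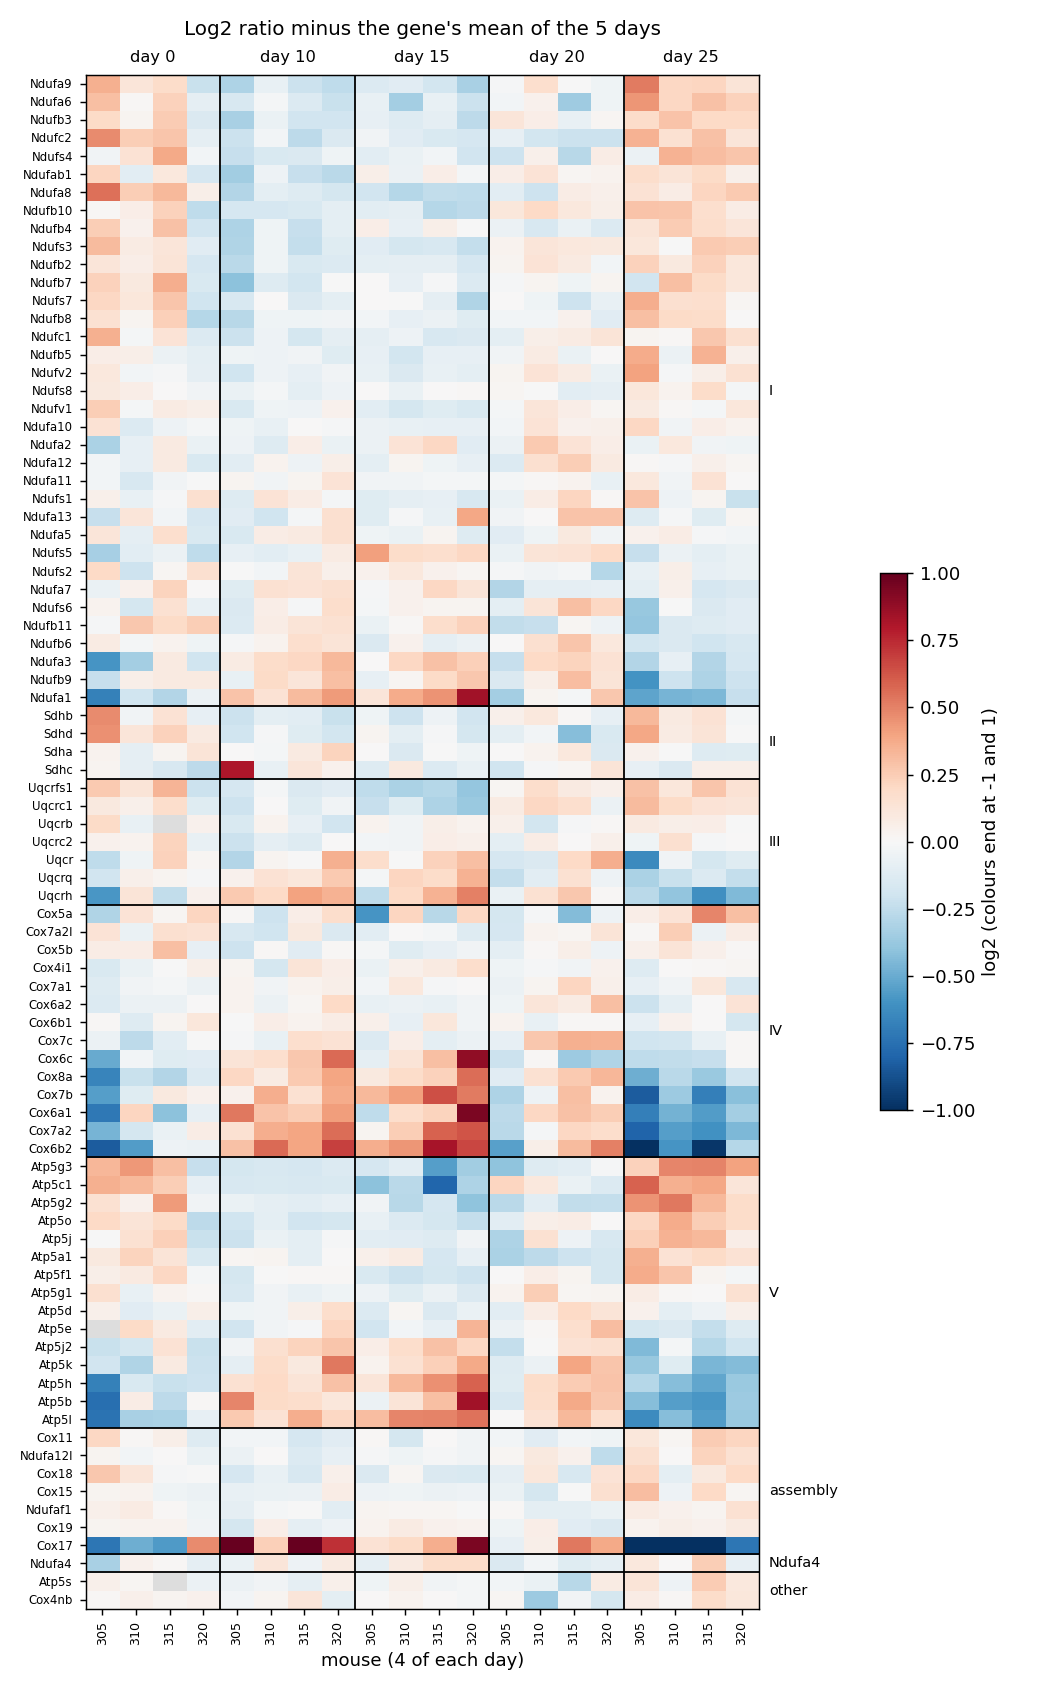
Log2 ratio of all 85 members (rows, grouped by complex and, within it, ordered by day 25 minus day 10) on the 20 arrays (columns, by day and mouse), each row minus its mean over the 5 days, after loess normalization. Red is above and blue below that mean, colours end at -1 and 1, and grey marks 3 missing values. The upper rows of complexes I and V are blue on days 10 and 15 and red on day 25, the lower rows of complexes I, III, IV and V the reverse, and mouse 320 on day 0 is unlike the other 3. Under median centring the red of days 10 and 15 would not be above day 0.

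Among the 23 genes with several member probes, probes differed in sign for 6 genes on day 10, 4 on day 15, 7 on day 20 and 7 on day 25, from day 0, and for 5 between days 25 and 10. Most of these differences were near 0, and only Atp5a1 had calls on both sides. The second probes of Uqcrh and Atp5h fell by 0.61 and 0.55 on day 25 against day 10, close to their first probes.

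The direction of a member went with the brightness of its probe. The 16 members with a mean log2 brightness above 12 had a median difference of 0.47 on day 10 and 0.43 on day 15 from day 0 and of -0.51 between days 25 and 10, while the 69 dimmer members had -0.09, -0.07 and 0.14. Pearson's r between difference and brightness over the 85 members, which share the arrays and the normalization, was 0.53 on day 10 and -0.55 for day 25 minus day 10, and Spearman's rho was 0.29 and -0.31. Over all other genes Pearson's r was 0.08 and -0.14 and Spearman's rho -0.20 and 0.17, so that they had no such trend over the whole range. Above 12, though, the 472 other genes moved the same way, with medians of 0.16 on day 10 and -0.12 for day 25 minus day 10. Of them, 31.1% were higher on day 10 and 42.8% lower on day 25 against day 10, beside 4.08% and 13.8% of the dimmer ones. Of the 16 members above 12, 6 were higher and 11 lower in these comparisons. The 150 other genes brighter than 14 had a median of 0.44 on day 10 and -0.78 for day 25 minus day 10. Spike-in transcripts are added RNA that the mice do not make. The median over 320 spots of 10 of them, taken at any brightness, moved by 0.34 and -1.04. Uqcrh, Cox6a1 and the brightest probe of Atp5b, all above 14, lay near other genes of their brightness. The 2 dimmer probes of Atp5b did not: they fell by 1.22 and 1.06 on day 25 against day 10, where other genes between 11 and 12 and between 9 and 10 had medians of 0.10 and 0.16. Cox6b2, Cox7a2 and Cox7b also lay apart from other genes of their brightness, at 10.7, 11.8 and 11.7. The medians of other genes between 10 and 11 and between 11 and 12 were 0.24 and 0.10 for day 25 minus day 10. Cox17, the brightest member at 16.2, was at -1.98, below the median of -0.78 of all other genes above 14. Genes near its own brightness were not compared. Its difference less the median of all genes was -1.42 with a loess span of 0.1, in place of -2.01. The part of brightness in the members' calls was not tested.

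**Figure D4:**
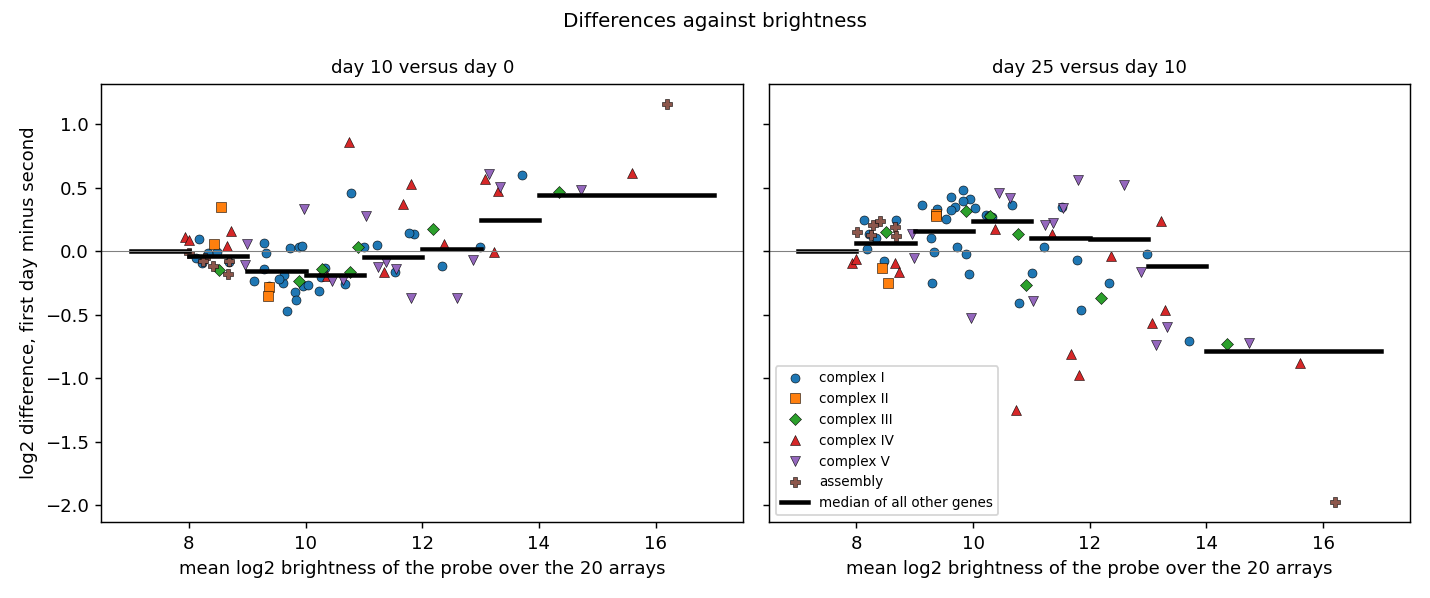
Log2 difference of the members (symbols by complex) against the mean log2 brightness of their probes, for day 10 versus day 0 (left) and day 25 versus day 10 (right), after loess normalization. Thick black bars are the medians of all other genes in the same range of brightness. Uqcrh, Atp5b and Cox6a1, all brighter than 14, lie near the bars, while Cox17, Cox6b2, Cox7a2 and Cox7b lie far below them on the right. The last bar takes in all other genes above 14, and genes near Cox17's own brightness were not compared. With median centring all 9 genes called higher on the left turn below 0, and of the 10 named lower genes on the right only Cox17 and Cox6b2 remain below 0.

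Other genes of mitochondrial metabolism were counted from lists of names. Beside these counts, 19.7% of all genes were higher and 14.8% lower on day 25 against day 10. The regulators below had no larger share than that in either direction. On day 10 against day 0 the shares of all genes were 4.95% and 8.99%. Of 17 tricarboxylic acid cycle genes, 10 were higher and 1 lower on day 25 against day 10, with a median of 0.20. Suclg1 (0.39), Sucla2 (0.36), Fh1 (0.35) and Cs, citrate synthase (0.32), were among the higher ones, and Ogdh, of the oxoglutarate dehydrogenase complex, fell by 0.59. On day 10 against day 0, 4 were lower and 1 higher (median -0.15). Of 20 other assembly factors and electron carriers, 7 were higher and 2 lower on day 25 against day 10. Of 18 regulators, 3 were higher and 1 lower: Ssbp1, which binds single-stranded mitochondrial DNA, was higher by 0.65 (adjusted p = 4.54e-05) and Tfam, which packages mitochondrial DNA and starts its transcription, fell by 1.61 (adjusted p = 7.88e-05), each in 4 of 4 mice. These and the other single genes of this paragraph were picked after their values were seen. Of 10 carriers, 3 were higher and 2 lower, the adenine nucleotide carrier Slc25a5 at 0.58 and the uncoupling protein Ucp2 at -1.13. Atpif1, an inhibitor of complex V, fell by 0.93. Median centring gave -0.40 for Tfam, 0.13 for Ucp2, 0.24 for Atpif1 and 0.10 for Ogdh, and kept the others above 0.

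Markers of blood cells moved over the same days. Among all genes, 19.7% were higher and 14.8% lower on day 25 against day 10. From day 0, 8.99%, 5.08%, 2.66% and 0.124% of all genes were lower on days 10, 15, 20 and 25, and 4.95% were higher on day 10. The 16 erythroid genes had a median difference of 0.49 on day 10, 0.38 on day 15, 0.12 on day 20 and -0.54 on day 25 from day 0, and 15 of the 16 were lower on day 25 than on day 10 (median -1.06). Their mean level per mouse was -0.49 to -0.12 on day 25 and 0.65 to 0.75 on day 10, against -0.18 to 0.65 on day 0. Slc4a1, the anion exchanger of red cells, fell by 1.90 on day 25 against day 10. The 13 mature neutrophil genes were lower than on day 0 by a median of 0.85 on day 10, 0.67 on day 15, 0.87 on day 20 and 0.50 on day 25, with 9, 8, 9 and 2 called lower. The T cell list had 6 of 12 genes higher on day 25 against day 10 and none lower, the B cell list 3 of 9 and none, the monocyte list 1 of 8 and none, the platelet list none and 3 of 7, and none of 8 NK and cytotoxic genes was called. Of the 4 hepatoma and liver genes, 1 was higher on day 10 and none was called in the other comparisons. With median centring the erythroid median was -0.73 on day 10 against day 0 and -0.11 on day 25 against day 10, and that of the neutrophil genes stayed below 0 from day 0, at -1.81 on day 10 and -0.70 on day 25. The part of these lists in the results on the members was not tested.

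**Figure D5:**
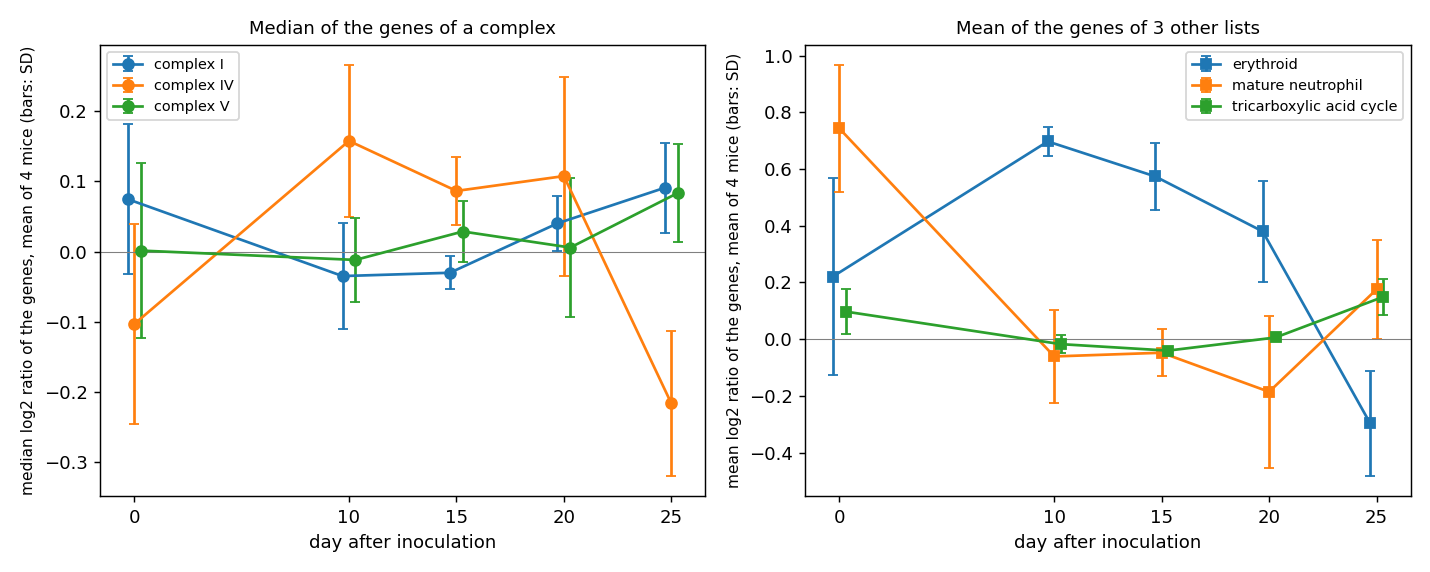
Left: median log2 ratio of the genes of complexes I, IV and V on each array, as the mean of 4 mice with SD bars, by day after inoculation. Right: mean log2 ratio of the erythroid, mature neutrophil and tricarboxylic acid cycle lists, as the mean of 4 mice with SD bars. After loess normalization, complex IV and the erythroid list are high on day 10 and low on day 25, complex I and the tricarboxylic acid cycle list low on days 10 and 15, and the neutrophil list below its day 0 level on every later day; with median centring no complex IV gene is called higher, and the erythroid median is below 0, on day 10 against day 0.

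The counts from day 0 depended on single arrays, as did those over all 15266 genes. Without 1 array at a time, the latter ranged between 280 and 1082 higher and 562 and 1763 lower on day 10. They were 220 to 519 and 430 to 1076 on day 15, and 17 to 1454 and 113 to 1241 on day 20. On day 25 they were 1 to 801 and 0 to 782. The member counts that follow thus do not show what is particular to the members. On day 10, without mouse 305 of day 0 the counts were 4 higher and 2 lower, without mouse 320 of day 10 they were 5 and 4, without mouse 305 or 315 of day 10 the lower count was 2 or 3, without mouse 315 of day 0 it was 3, and without mouse 320 of day 0 it was 23. On day 15, leaving out mouse 305 of day 0 gave 5 higher and 3 lower, mouse 320 of day 0 gave 21 lower, and mice 310 and 315 of day 0 and 310, 315 and 320 of day 15 gave 4 to 6 lower. Of the named calls, 6 of 16 held without any 1 array on day 10 (Cox17, Atp5l, Cox8a, Atp5h, Ndufa8 and Ndufc2), 8 of 19 on day 15, 0 of 9 on day 20 and 22 of 23 between days 25 and 10. On day 20 the counts were 0 higher and 0 lower without mouse 315 of that day, 1 and 0 without mouse 320 of that day or mouse 305 of day 0, 1 and 3 without mouse 310 of day 20, 2 and 1 without mouse 310 of day 0, 1 lower without mouse 315 of day 0, and 9 higher without mouse 305 of day 20. On day 25 against day 0, 2 were lower without mouse 305 of day 0, and 1 was higher and 2 lower without mouse 310 of day 25.

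Each mouse was bled on all days, so the mouse was also fitted as a block. As a fixed term this gave 8 higher members in place of 5 on day 20 (5.45% of all genes) and 4 lower in place of 0 on day 25 (1.22% of all genes), both against day 0. As a random effect it gave 5 higher on day 20 and 0 lower on day 25. The 4 were Ndufb11 (-0.37), Ndufb9 (-0.33), Cox7a2 (-0.44) and Cox7b (-0.44), with adjusted p from 0.00436 to 0.0353 in limma with the fixed block. Between days 25 and 10 the fixed block gave 32 higher and 20 lower.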

How the data were processed

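RNA of whole blood of 4 mice on 5 days was hybridised to 20 Agilent 2-colour arrays of 45018 spots. The deposited scanner files hold mean and background intensity per spot and channel and the log10 ratio of Cy5 over Cy3, per the file headers the output of Feature Extraction 9.1.3.1. The deposited value table equals that log10 ratio in 900360 of 900360 values within 1e-06.

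From the intensities, normexp background correction (offset 50, all spots) and loess within each array (control spots at weight 0) gave log2 ratios of Cy5 over Cy3 (R 4.3.3, limma 3.58.1). Non-uniform spots were left out and spots of a probe averaged. Probes were kept if Cy5 was well above background on at least 4 arrays and they were measured on at least 3 arrays of each day, and the brightest probe stood for a gene, which left 15266 genes. Names follow the files, and 80 members were matched to RefSeq by accession, 4 by symbol and 1 by synonym. Ndufa12l is now Ndufaf2, Uqcr is Uqcr11 and Atp5f1 is Atp5pb.

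limma fitted the 5 day means over all 20 arrays with Benjamini-Hochberg adjustment over all genes. Atp5e, Atp5s and Uqcrb had 3 mice on day 0. The 4 mice are separate animals, each bled on all days. Mice share a number across days because they are the same animal, and, after each day's mean was taken off, the mean r was 0.0873 over 40 pairs of arrays of the same mouse, against -0.0296 over 120 pairs of different mice. Tested on simulated data for day 10 against day 0 over 15266 genes, the fit recovered 68% of genes changed by 0.4 and 94% of those changed by 0.8 on the log2 scale, with 4.14% false calls. The simulated noise was independent between arrays, with no effect of slide or mouse. These rates thus need not hold for the real arrays. The number of arrays limits the precision.

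Named genes were the 10 highest and 10 lowest called with 1 sign in every mouse per comparison, the extremes of each complex, paralogue sets, genes with opposite probes and genes at the detection limit. Cox6c, Atp5k, Atp5j2, Atp5j, Ndufb9, Ndufb11, Cox6b1, Ndufa12l and Ndufaf1 fall outside that rule at least in part and were picked with their values in view. At that limit, Cox10 and second probes of Ndufab1, Ndufb2 and Ndufs4 (3 arrays) were out, and a second probe of Ndufb8 (7 arrays) and Cox4nb (9) were in. The members, lists and tests were chosen with earlier results of these data known. Alternatives were other background corrections, normalizations, filters, the Cy5 channel alone, every probe, the mouse as a block and each array left out.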

Additional observations from a re-analysis of the deposited data

Results flagged for a closer look

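In 8 of 165 combinations of a gene and a day (33 genes named in the comparisons), 1 of the 4 mice lay far from the other 3 by Dixon's criterion, where chance gives about 1 in 20. Atp5h of mouse 305 on day 0 was -0.6504, with the others between -0.19 and -0.12. Atp5o of mouse 320 on day 0 was -0.2902, with the others between 0.10 and 0.17. Atp5f1 of mouse 305 on day 10 was -0.2204, and Ndufs5 of mouse 320 on day 10 was 0.08197, the highest of its day. On day 20, Atp5g2 of mouse 310 was -0.2589 and Ndufa9 of mouse 310 was 0.2579, each the highest, and Cox6a1 of mouse 305 was -0.1869, the lowest. Ndufs4 of mouse 305 on day 25 was -0.207, with the others between 0.13 and 0.20.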

How the results depend on the processing

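Counts of members are given as higher and lower. Counts over all genes changed with the setting too, and their ranges, given at the end, are not split by setting. The member counts here thus do not show what is particular to the members. With median centring in place of loess they were 0 and 61 on day 10, 0 and 0 on days 15 and 20 from day 0, and 59 and 0 for day 25 against day 10. The scanner's log ratio gave 5 lower on day 10, 19 and 17 on day 15, 3 lower on day 20 and 1 higher on day 25. No background correction gave 19 and 18 on day 10, 23 and 18 on day 15, 9 lower on day 20 and 5 and 4 on day 25. The Cy5 channel alone gave 15 lower on day 10, 19 and 20 on day 15, 17 and 8 on day 20, 13 higher on day 25, and 3 lower for day 25 against day 10. Scaling between arrays, added after seeing the data, gave 0 and 2 on day 10, 0 and 0 on day 20, 3 and 1 for day 25 against day 10, and 21 genes differing among the days. A loess span of 0.1, also added later, gave 4 higher on day 10, 3 higher on day 20 and 1 lower on day 25. The stricter filter gave 14 lower on day 10, and no filter 5 lower on day 10 and 3 higher on day 20. Fitting only the arrays of the days compared gave 1 lower on day 10, 4 and 3 on day 15 and 0 and 0 on day 20. The mouse as a fixed block gave 8 higher on day 20 and 4 lower on day 25, and changed 1 of 67 named calls, and the random block none. Aquantile scaling leaves log ratios as they are. The F test with only the arrays of the days compared was not run. Without 1 array at a time, the counts ranged between 4 and 12 higher and 2 and 23 lower on day 10, 5 and 13 and 3 and 21 on day 15, 0 and 9 and 0 and 7 on day 20, 0 and 1 and 0 and 2 on day 25, 22 and 33 and 17 and 20 for day 25 against day 10, and 40 and 49 genes differing among the days.

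Differences that turned round under median centring were, on day 10, Cox17 -0.42, Cox6b2 -0.50, Atp5l -0.90, Ndufa1 -0.93, Cox8a -0.96, Cox7a2 -0.94, Atp5h -1.02, Uqcrh -1.08 and Ndufa3 -0.94. On day 15 they were Cox6b2 -0.31, Atp5l -0.62, Ndufa1 -0.70, Atp5h -0.76, Cox7b -0.72, Cox8a -0.84, Cox7a2 -0.84, Ndufa3 -0.88 and Ndufs5 -0.98, and on day 20 Atp5l -0.38, Cox8a -0.41, Atp5h -0.45 and Ndufs5 -0.60. For day 25 against day 10 they were Cox7a2 0.31, Cox6a1 0.28, Cox7b 0.45, Atp5l 0.48, Uqcrh 0.46, Atp5b 0.47, Ndufa1 0.50 and Atp5h 0.63. With the Cy5 channel alone, Ndufc2 was 0.0014 on day 10 from day 0, and Cox6a1 was 0.020 and Atp5b 0.064 for day 25 against day 10. The cause was not tested. Over all genes and settings other than single arrays, the higher and lower counts ranged between 14 and 2571 and 509 and 7127 on day 10, 0 and 3115 and 9 and 4252 on day 15, 0 and 1735 and 4 and 2096 on day 20, 0 and 1001 and 0 and 1116 on day 25, and 1580 and 7817 and 138 and 3277 for day 25 against day 10. Low Cy5 signal on days 10 to 20 limits dim probes.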
